A study of Mus musculus with 4 samples.

Results

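B cell and plasma cell genes were examined in splenic myeloid-derived suppressor cells (MDSCs) that had been cultured with or without EGCG. The 9 genes were Cd79a, Cd79b, Ms4a1, Ebf1, Pax5, Ighm, Igkc, Jchain and Mzb1. They were chosen by gene symbol, as markers of B cells and plasma cells, from a table of 53465 genes, and each symbol was found once. All 9 had enough counts to be tested, as had 14682 genes in all.

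MDSCs are immature myeloid cells that expand in hosts with a tumor, and 4T1 is a mammary carcinoma line that grows in BALB/c mice. According to the labels and the methods of the study, 4T1 cells were injected under the skin of male BALB/c mice of 6 weeks, and Gr-1-positive cells were taken from the spleens with magnetic beads. The Gr-1 antibody binds Ly-6G and Ly-6C. The sorted cells, all from tumor-bearing mice, were then kept for 6 h in medium alone (the control group, 2 libraries) or in medium with 5 μg/mL of EGCG, a catechin and major polyphenol of green tea (the EGCG treatment group, 2 libraries). The labels put the sorting on day 21 after injection, whereas the methods give an earlier day. No source used here says if both libraries of a group were made from 1 set of mice or wells or from separate ones, so p values measure only the spread between these libraries, which may be technical. The libraries held 17767318 and 17973695 counts on genes in the control group and 18390385 and 18091684 in the EGCG treatment group.

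B cells read antigen through a membrane immunoglobulin whose signal is carried by the paired chains CD79A and CD79B, and their identity is set by transcription factors such as EBF1 and PAX5. When B cells become plasma cells, the program of PAX5 is shut down, and large amounts of immunoglobulin, joining chain and secretory pathway proteins are made. B cells are a major population of the spleen but are not the target of a Gr-1 sort. In such bulk RNA, fewer B cells and less B cell RNA per cell cannot be told apart.

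None of the 9 genes passed the test between the EGCG treatment group and the control group (quasi-likelihood test of edgeR, p adjusted across the whole table after Benjamini and Hochberg, threshold 0.05). Of all 14682 tested genes, 22 passed, or 0.15%, and with 1 library left out 5 to 119 passed higher and 72 to 235 lower under EGCG. Of the 9 genes, 2 had an unadjusted p under the same threshold, Ms4a1 and Jchain, both with the higher level under EGCG, where the background was 5.22% of tested genes in that direction and 7.02% in the other. DESeq2 also called 0 of the 9 and gave 2 at an unadjusted level. The edgeR count of 2 at an unadjusted level changed in every fit that left out a library. All 9 fitted log2 fold changes were above 0 (8 with library size as the only scaling, where Pax5 was at -0.03), compared with 50.6% of all tested genes. The median log2 fold change of the 9 was 0.16, and that of all tested genes was 0.00.

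Both EGCG libraries lay above both control libraries for 5 of the 9 genes, namely Cd79a, Ms4a1, Ighm, Igkc and Jchain, and this was so for 21.5% of all tested genes. Both EGCG libraries lay below both controls for 0 of the 9, and for 21.2% of all tested genes. The 9 genes share their libraries, so their common direction is not 9 separate observations. Control replicate 1 had the lowest level of the 4 libraries for all 9 genes. The highest level was in EGCG replicate 1 for 6 genes, in control replicate 2 for 2 genes (Ebf1 and Pax5), and in EGCG replicate 2 for 1 gene (Ighm).

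**Figure D1:**
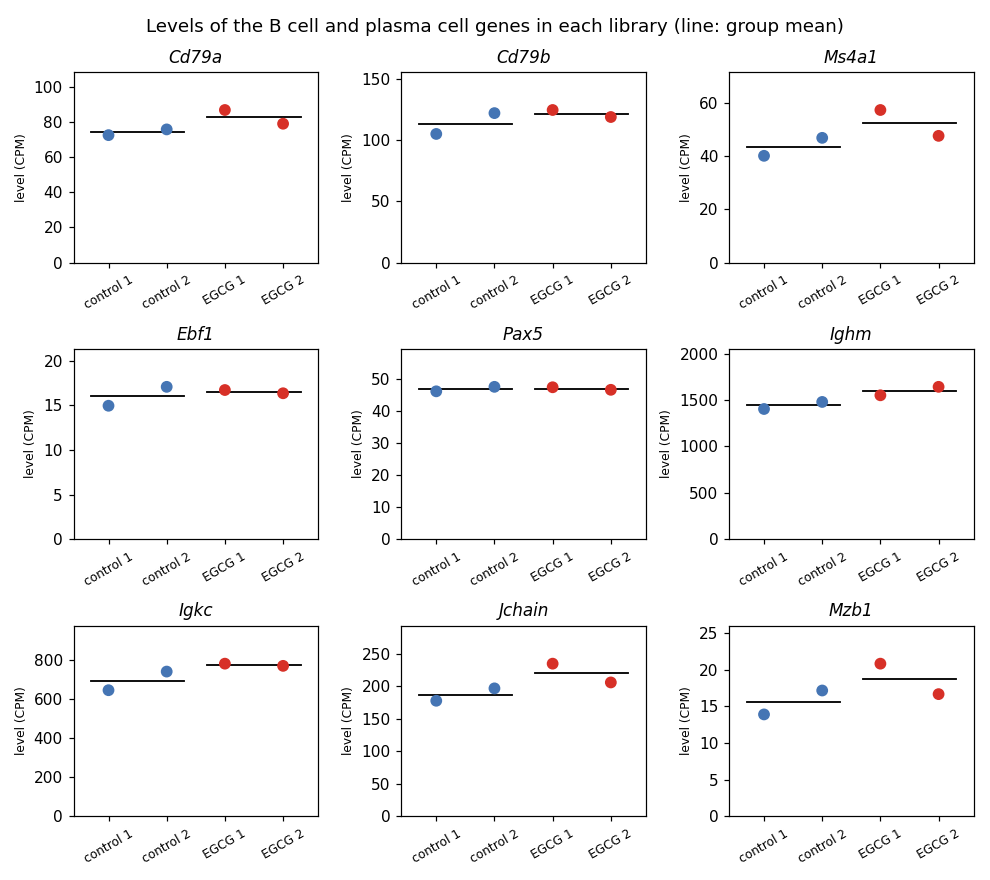
Level of each of the 9 genes in the 4 libraries, in CPM (TMM-scaled) on an axis of its own starting at 0; points are libraries and horizontal lines are group means (n = 2). The points of the 2 groups overlap for Cd79b, Ebf1, Pax5 and Mzb1, and control replicate 1 is the lowest point in every panel.

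Levels can be compared between genes only per length, here as CPM (a count scaled to the TMM-adjusted total of its library) per kilobase of exonic sequence, averaged over the 4 libraries. Igkc was highest with 1381 CPM per kb, followed by Ighm with 806. On this scale they lay at percentiles 99.8 and 99.6 of the tested genes. Cd79b (82.2) and Jchain (80.8) came next, and their ranges over libraries overlapped, from 73.4 to 87.0 for Cd79b and from 70.5 to 93.1 for Jchain. Cd79a followed with 53.9, Mzb1 with 14.1, Ms4a1 with 7.75, Pax5 with 5.30 and Ebf1 with 1.67 CPM per kb. Apart from Cd79b and Jchain, no neighbors in this order overlapped over the 4 libraries. Together the 9 genes took 0.259% and 0.273% of all counts in the controls, against 0.288% and 0.291% in the EGCG libraries, most of it on Ighm.

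The promoters of Cd79a and Jchain are shown because they stand for the 2 sides of the list, the antigen receptor of B cells and the secreted antibody of plasma cells. RefSeq (GRCm38.p6) gave a promoter window of 300 bases around the start for 4 of the 9 genes (Pax5, Jchain, Cd79a and Ebf1). The windows were searched on both strands for the palindromic consensus of EBF factors, for ATGCAAAT, the octamer bound by OCT factors, and for GGAAGTG, a core bound by Ets factors. Of all 32851 promoter windows of the same length, 0.904% held the first, 1.74% the second and 11% the third. The Cd79a window held GGAAGTG, in capitals below, with its first base 54 bases before the RefSeq start, which lies downstream of the GENCODE start of the gene given here, and the other motifs were not in it. None of the 3 was in the windows of Jchain, Pax5 or Ebf1. A match describes letters and does not show that a factor binds. Only these exact letters were searched, so the lack of a match does not show that a site is absent. Sequences are given 5′ to 3′ on the strand of the gene, for chr7:24897247-24897546 on the plus strand and chr5:88527848-88528147 on the minus strand.
Cd79a: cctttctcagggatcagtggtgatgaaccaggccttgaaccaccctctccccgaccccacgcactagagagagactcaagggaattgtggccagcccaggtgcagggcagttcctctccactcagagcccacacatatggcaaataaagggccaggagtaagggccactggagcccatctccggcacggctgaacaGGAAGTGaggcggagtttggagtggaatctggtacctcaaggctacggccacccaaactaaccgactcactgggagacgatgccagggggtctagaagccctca
Jchain: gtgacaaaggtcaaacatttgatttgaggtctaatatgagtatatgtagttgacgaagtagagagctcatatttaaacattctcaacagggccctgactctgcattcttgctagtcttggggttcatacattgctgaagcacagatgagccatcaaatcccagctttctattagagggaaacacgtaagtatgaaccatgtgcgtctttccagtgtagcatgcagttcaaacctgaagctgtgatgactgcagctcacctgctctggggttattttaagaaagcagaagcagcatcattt

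Cd79a and Cd79b, which encode the signaling chains of the B cell receptor, were read in every library. Cd79a (ENSMUSG00000003379, GRCm38 chromosome 7, 24897381 to 24902197, plus strand) had 72.5 and 75.7 CPM in the controls, against 86.8 and 78.9 CPM in the EGCG libraries, from 1323 to 1573 counts. The EGCG libraries were both higher, with group means of 74.1 ± 2.30 and 82.8 ± 5.52 CPM (SD, n = 2), but the difference did not pass the test (log2 fold change 0.16, SE 0.08, 95% interval -0.01 to 0.34, adjusted p = 0.452). Part of the transcript sequence of Cd79a, 12.2% of its words of 31 bases, also occurs in the processed pseudogene Gm32220, so a share of its reads may have been counted elsewhere or dropped. Cd79b (ENSMUSG00000040592, chromosome 11, 106311341 to 106314762, minus strand) had 105 and 122 CPM in the controls and 125 and 119 CPM with EGCG. Control replicate 2 lay between the EGCG libraries, and the log2 fold change of 0.10 (SE 0.08, 95% interval -0.08 to 0.28, adjusted p = 0.680) was smaller than the gap between the controls.

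Ms4a1 (ENSMUSG00000024673, chromosome 19, 11249675 to 11266241, minus strand) encodes CD20, a surface protein of B cells that is lost in plasma cells. Its levels were 40.1 and 46.8 CPM in the controls, against 57.3 and 47.6 CPM in the EGCG libraries. The EGCG libraries were both higher, yet EGCG replicate 2 exceeded control replicate 2 by less than the controls differed from each other. The fitted log2 fold change was 0.27 (SE 0.11, 95% interval 0.04 to 0.50, adjusted p = 0.336). Leaving out EGCG replicate 1 brought it to 0.13, and leaving out EGCG replicate 2 to 0.40, with adjusted p values of 0.774 and 0.0591.

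The transcription factor genes had the smallest estimates of the 9 in the fit without a correction for gene length. With that correction Pax5 stood at 0.11 and Ebf1 at 0.16, and Cd79b (0.08) and Igkc (0.08) were nearest to 0. Pax5 (ENSMUSG00000014030, chromosome 4, 44524757 to 44710487, minus strand), which holds cells to the B lineage, had 46.2 and 47.6 CPM in the controls, against 47.4 and 46.6 CPM in the EGCG libraries. Both EGCG libraries lay between the controls, and the log2 fold change was 0.01 (SE 0.09, 95% interval -0.18 to 0.19, adjusted p = 0.987). Exons of Pax5 overlap 761 bases of the antisense genes Gm12462 and 5730488B01Rik, and because the counting ignored strand, reads of those bases cannot be assigned between them. Ebf1 (ENSMUSG00000057098, chromosome 11, 44617317 to 45008091, plus strand), which acts with Pax5 early in the lineage, had 15.0 and 17.1 CPM in the controls, against 16.7 and 16.3 CPM in the EGCG libraries. Again the EGCG libraries lay between the controls, with a log2 fold change of 0.05 (SE 0.12, 95% interval -0.21 to 0.30, adjusted p = 0.918).

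Ighm and Igkc encode the constant regions of the μ heavy chain, part of IgM, and of the κ light chain. Ighm (ENSMUSG00000076617, chromosome 12, 113418558 to 113422730, minus strand) had 25633 and 26442 counts without EGCG and 28128 and 29336 with it, or 1404 and 1480 against 1551 and 1642 CPM. Its groups did not overlap, with means of 1442 ± 53.7 and 1597 ± 64.4 CPM (SD, n = 2), and the log2 fold change was 0.15 (SE 0.08, 95% interval -0.02 to 0.32, adjusted p = 0.491). Igkc (ENSMUSG00000076609, chromosome 6, 70726435 to 70726966, plus strand) had 646 and 741 CPM across the controls and 782 and 770 CPM in those with EGCG. Control replicate 1 lay farther below the other 3 libraries than those 3 lay from each other, and the log2 fold change was 0.16 (SE 0.08, 95% interval -0.02 to 0.34, adjusted p = 0.461). No word of 31 bases in the transcripts of Ighm or Igkc occurs in those of another gene.

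Jchain and Mzb1 belong to the making of secreted antibody. Jchain (ENSMUSG00000067149, chromosome 5, 88519809 to 88527891, minus strand) encodes the joining chain that links IgM and IgA into polymers. It had 177 and 196 CPM in controls 1 and 2, and 234 and 206 CPM in EGCG replicates 1 and 2, so the groups did not overlap. Its log2 fold change of 0.24 (SE 0.08, 95% interval 0.05 to 0.42) had the smallest adjusted p of the 9 genes, 0.290, and did not pass. Mzb1 (ENSMUSG00000024353, chromosome 18, 35647267 to 35649367, minus strand) encodes a protein of the endoplasmic reticulum that helps IgM assembly and secretion. It was read with 254 and 307 counts in the controls and 378 and 298 with EGCG, and EGCG replicate 2 lay between the controls on the CPM scale (13.9 and 17.2 against 20.8 and 16.7). Its log2 fold change was 0.27 (SE 0.14, 95% interval -0.03 to 0.57, adjusted p = 0.464). Mzb1 is the least certain member, because 695 of its 1215 exonic bases are also exonic in SPATA24 on the same strand.

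**Figure D2:**
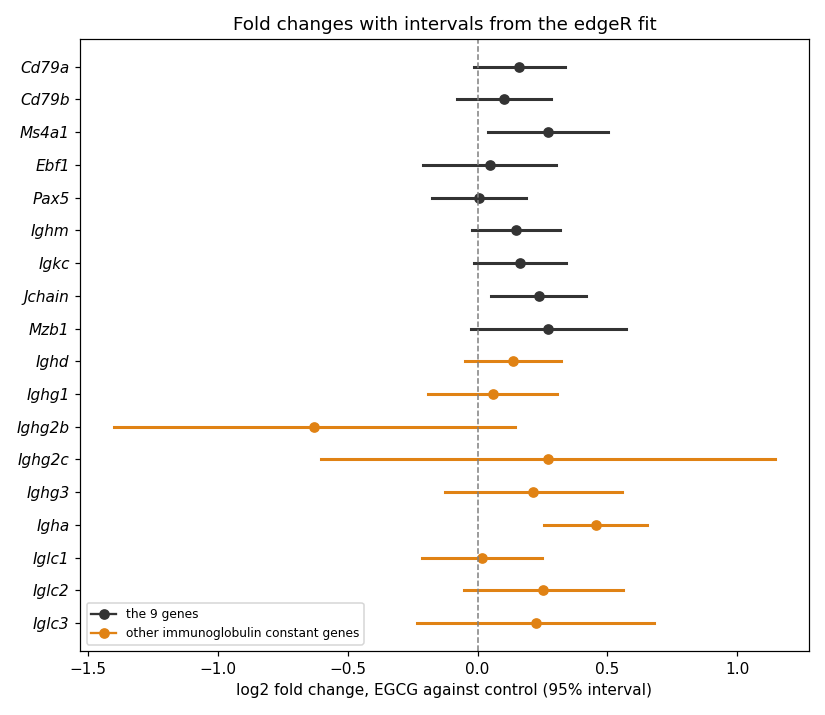
Fitted log2 fold change, EGCG against control, with 95% intervals from edgeR (2 libraries per group). The 9 genes are dark and the other tested immunoglobulin constant genes are orange. Among the 9 genes the estimates run from 0.01 (Pax5) to 0.27 (Mzb1). Of these, Ms4a1 and Jchain have intervals that do not reach 0 before adjustment over all tested genes. Among the orange genes, the interval of Igha does not reach 0 either.

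The size of these differences depended on which libraries were used. Without control replicate 1, 7 of the 9 log2 fold changes were above 0, with a median of 0.11. Ebf1 was then at -0.04 and Pax5 at -0.01, and Cd79b was at 0.00. Without control replicate 2 the median was 0.22. Without EGCG replicate 1 the median was 0.11 and 8 of the 9 were above 0, with Pax5 the exception, and without EGCG replicate 2 the median was 0.17. The log2 fold change of Igkc ranged from 0.07 to 0.27 and that of Mzb1 from 0.11 to 0.43 over these fits. That of Jchain ranged from 0.14 to 0.33 and that of Cd79a from 0.09 to 0.23 over the same fits. None of the 9 passed the adjusted test in any of them.

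**Figure D3:**
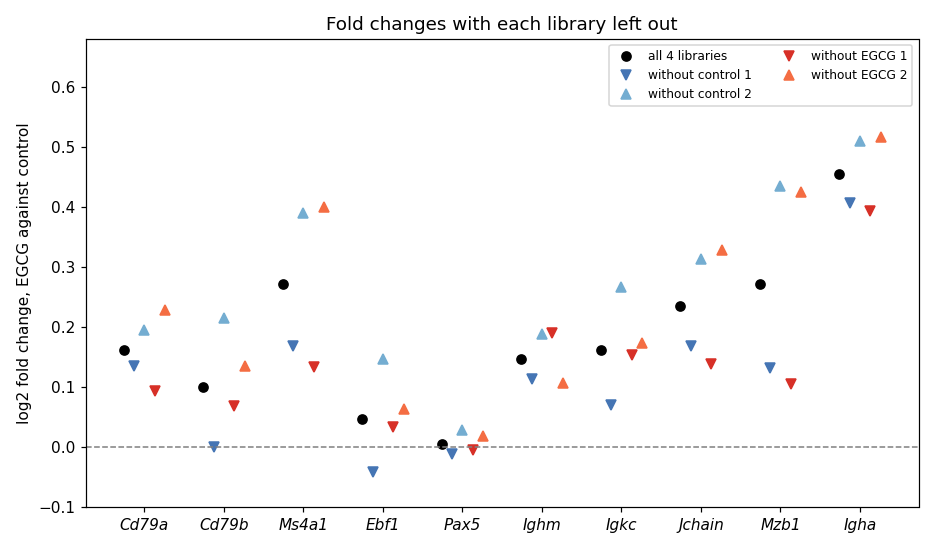
Log2 fold change of each of the 9 genes, and of Igha, with all 4 libraries and with each library left out in turn. The values of all 9 genes are lower without control replicate 1 and higher without control replicate 2. Those of 8 of the 9 (Ighm excepted) are lower without EGCG replicate 1.

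Summed over the 5 genes that B cells in general express (Cd79a, Cd79b, Ms4a1, Ebf1 and Pax5), the level was 279 and 309 CPM without EGCG and 333 and 308 CPM with it. EGCG replicate 2 lay just inside the control range. The sum of the 4 immunoglobulin and secretion genes was 2241 and 2434 CPM across the controls and 2588 and 2635 CPM in those with EGCG, and its groups did not overlap. Within a library, ratios to Cd79a do not depend on the scaling of that library. There were 2.45 and 2.59 counts of Jchain per count of Cd79a in the controls, against 2.702 and 2.604 in the EGCG libraries. The ratio of Ighm to Cd79a was 19.4 and 19.5 in the controls, against 17.9 and 20.8 in the EGCG libraries, which overlapped. The ratio of Pax5 to Cd79a was 0.637 and 0.628 in the controls, against 0.547 and 0.591 in the EGCG libraries, lower in both. Of the 8 ratios to Cd79a, the other 5 (Igkc, Mzb1, Ms4a1, Cd79b and Ebf1) overlapped between groups as well as that of Ighm.

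The label of the list was checked against other genes. All 21 further B cell identity genes were tested, and their summed level was 548 and 559 CPM in controls 1 and 2, and 572 and 554 CPM in EGCG replicates 1 and 2. Pou2af1, a coactivator of octamer-binding factors, stood at 60.6 to 70.8 CPM, Spib, an Ets factor of B cells, at 43.9 to 49.5 CPM, and Fcrl1 at 37.2 to 38.3 CPM over the 4 libraries. Of the 21, 0 passed the test and 13 had a log2 fold change above 0, with a median of 0.08. At an unadjusted level, 2 were higher under EGCG (Tnfrsf13c, the receptor of BAFF, at 0.30, and Ly6d at 0.37) and 1 was lower (Siglecg, an inhibitory receptor, at -0.29), the smallest adjusted p being 0.328. Over all tested genes these shares were 5.22% higher and 7.02% lower.

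Of 18 genes of B cell receptor signaling, most of which myeloid cells use as well, 0 passed the test, 9 had a log2 fold change above 0 and 9 below 0, and the median was -0.0019. The 4 with the highest CPM, not corrected for length, Ptpn6, Syk, Lyn and Inpp5d, encode 2 phosphatases and 2 kinases, and their log2 fold changes lay between -0.09 and 0.07. Bcl10 (0.19) was higher and Malt1 (-0.22) lower at an unadjusted level, with adjusted p values of 0.339 and 0.364. Thus 1 of 18 was higher and 1 of 18 lower, near the background of 5.22% and 7.02%. Of 7 genes of B cell precursors, 6 were tested and 0 passed. Il7r, which T cells express too, had 53.9 and 48.0 CPM in the controls, against 42.0 and 45.3 CPM in the EGCG libraries (log2 fold change -0.22, adjusted p = 0.359), while Rag1, Igll1 and Vpreb1 lay between 2.76 and 6.72 CPM.

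The genes of the plasma cell list differed widely in level. Tnfrsf17, the receptor BCMA of plasma cells, had 2 and 1 counts in the controls and 6 and 2 with EGCG and was too low to be tested. Sdc1, which encodes the plasma cell surface marker CD138 but is also made by other cells, was at 11.4 to 15.6 CPM, and the secretory pathway genes Derl3 and Fkbp11 were at 0.712 to 1.88 CPM. Prdm1, the repressor that ends the B cell program, was at 13.1 to 18.6 CPM, Tnfrsf13b, the receptor TACI that B cells also carry, at 25.6 to 28.3 CPM, and Irf4, a factor of B cell and plasma cell differentiation, at 26.9 to 31.3 CPM. The cell source of Jchain and Mzb1 was not tested. Of 15 further plasma cell genes, 14 were in the table and 13 were tested. None of them passed, 3 had a log2 fold change above 0 and 10 below, and the median was -0.08. The list is dominated by genes that many cells use. Edem1, of protein quality control in the endoplasmic reticulum, stood at 232 to 240 CPM, and Xbp1, which drives the secretory program, at 151 and 145 CPM without EGCG and 132 and 135 CPM with it (log2 fold change -0.15, adjusted p = 0.441). Irf4 had a log2 fold change of -0.18 (adjusted p = 0.480), Prdm1 of -0.30 (adjusted p = 0.376), and Txndc5, a disulfide isomerase, of -0.0037 (adjusted p = 0.997). The 3 members above 0 were Derl3 (0.15), Fkbp11 (0.15) and Tnfrsf13b (0.09).

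Among the other immunoglobulin constant regions, 11 of 12 listed genes were in the table, 9 were tested and 0 passed. Igha, the heavy chain of IgA, came nearest. It had 640 and 674 counts across the controls and 943 and 852 in those with EGCG, or 35.0 and 37.7 CPM against 52.0 and 47.7 CPM, which did not overlap. Its log2 fold change was 0.45 (SE 0.09, 95% interval 0.26 to 0.65, adjusted p = 0.0717), larger than that of any of the 9 genes. The alternatives that kept the 4 libraries gave Igha adjusted p values from 0.0312 (library size only) to 0.593 (no filter on low counts). It passed the test under 3 of them (library size only, robust estimation and DESeq2, adjusted p = 0.0312, 0.0379 and 0.0396). Igha took 2.30% and 2.34% of the heavy chain constant counts in the controls, against 3.05% and 2.68% in the EGCG libraries. Ighm held 92.1% and 91.8% of these counts in the controls, against 90.9% and 92.4% in the EGCG libraries, and Igkc held 88.6% to 90.4% of the light chain constant counts.

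Ighd, the heavy chain of IgD on mature B cells, had 45.8 and 48.2 CPM in the controls, against 53.44 and 49.996 CPM in the EGCG libraries (log2 fold change 0.14, adjusted p = 0.569). Iglc1, a λ light chain constant region, ranged from 40.1 to 50.5 CPM, and Iglc2 from 26.9 to 42.7 CPM, with overlapping groups for both. Part of the Iglc2 sequence, 19.6% of its words, is shared with Iglc3 and a joining segment. Ighg2b had 90 and 113 counts in the control group but 102 and 29 in the EGCG libraries, so the low value was in EGCG replicate 2 alone, and its log2 fold change was -0.63 (adjusted p = 0.523). BALB/c mice carry Ighg2a in place of the Ighg2c of the C57BL/6 reference, and Ighg2a was not in the table, so reads of that isotype have no row of their own.

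**Figure D4:**
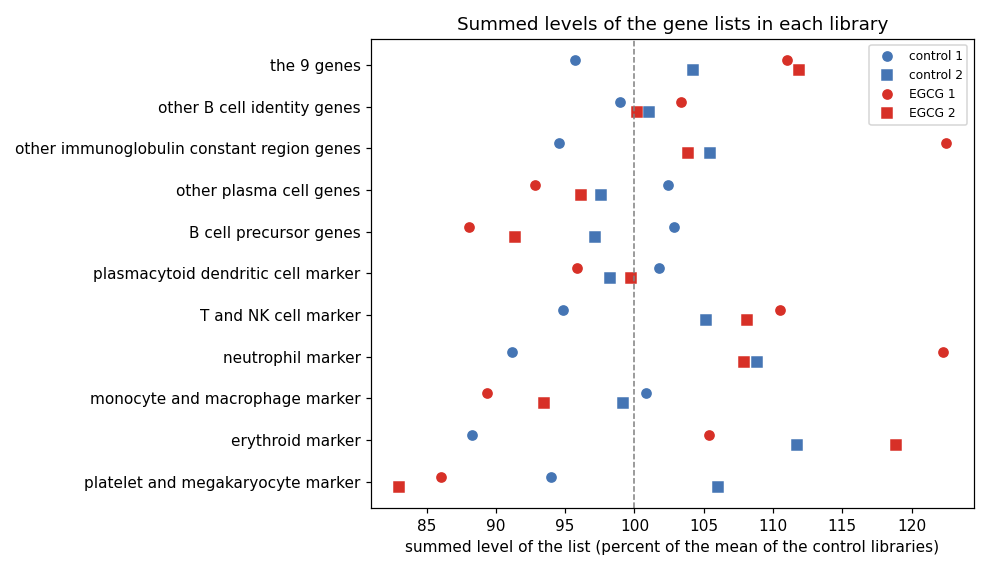
Summed CPM of gene lists in each of the 4 libraries relative to the mean of the 2 control libraries. The sum of the 9 genes lies higher in both EGCG libraries, whereas that of the further plasma cell genes lies lower in both.

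The immunoglobulin variable segments were summed by locus. The 185 heavy chain segments (Ighv) gave 211 and 224 CPM in controls 1 and 2, and 215 and 218 CPM in EGCG replicates 1 and 2. The 160 κ segments (Igkv) gave 426 and 467 CPM in the controls and 463 and 479 CPM with EGCG, and the 3 λ segments gave 72.0 to 80.6 CPM over the 4 libraries. Of the segments with enough counts, 55 heavy chain, 75 κ and 3 λ segments were tested and 0 passed, with medians of 0.00, 0.07 and 0.11. The sums for Ighv and Igkv thus overlapped between groups where Ighm and Igkc did not. There were 0.138 and 0.139 Ighv counts per heavy chain constant count in the controls, against 0.126 and 0.122 in the EGCG libraries. Igkv counts per Igkc count were 0.660 and 0.631 in the controls, against 0.592 and 0.622 in the EGCG libraries. Both ratios were lower in both EGCG libraries.

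Markers of the other cells that a Gr-1 sort from spleen could hold were read beside these genes. Neutrophil markers were by far the highest, with a summed 59196 and 70700 CPM without EGCG and 79410 and 70101 CPM with it, and 7 of 10 had a log2 fold change above 0. Control replicate 1 was lowest and EGCG replicate 1 highest in this sum, as in most of the 9 genes. S100a8 had 14461 and 18163 CPM in the controls and 22838 and 19476 CPM with EGCG (log2 fold change 0.38, adjusted p = 0.228), the largest estimate of the 10 markers. The 14 T and NK cell markers summed to 119 and 131 CPM across the controls and 138 and 135 CPM in those with EGCG, and 8 of the 12 tested were above 0, among them Cd3d, a chain of the T cell receptor complex (75.2 and 86.0 CPM against 87.7 and 90.2 CPM). Cd3d made up most of this sum, and without it the sums were 43.3 and 45.4 CPM against 50.4 and 44.9 CPM and overlapped. Erythroid markers summed to 151 and 191 CPM in controls 1 and 2, and 180 and 203 CPM in EGCG replicates 1 and 2, and 4 of the 5 tested were above 0. The defining genes of none of these 3 lists were at 0. Control replicate 1 was thus also the lowest library in these lists, and their part in the levels of the 9 genes was not tested.

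Monocyte and macrophage markers summed to 1506 and 1481 CPM in the controls and 1335 and 1396 CPM with EGCG, and 9 of 10, including Csf1r and Adgre1, had a log2 fold change below 0. Conventional dendritic cell markers summed to 119 and 108 CPM in the controls, against 99.5 and 112 CPM in the EGCG libraries, and platelet markers to 38.7 and 43.6 CPM against 35.4 and 34.2 CPM. Plasmacytoid dendritic cell markers, of interest because those cells express Jchain and Mzb1, summed to 177 and 171 CPM without EGCG and 167 and 174 CPM with it. That sum was led by Irf8, which other myeloid cells share, and the defining gene Siglech had 35 and 23 counts across the controls and 38 and 29 in those with EGCG. None of the 57 tested markers of these 7 cell types passed the test, and their part in the levels of Jchain and Mzb1 was not tested.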

How the data were processed

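RNA was sequenced from 4 libraries, 2 of the control group and 2 of the EGCG treatment group, grouped by their labels. According to the submitters' processing notes and the methods of the study, reads were demultiplexed with bcl2fastq 1.8.4, checked with FastQC, aligned to GRCm38 with STAR 2.6.0c, and counted on Ensembl release 91 with featureCounts 1.6.2. The authors deposited whole-number counts per gene, without normalization and without regard to strand, and 0 columns were of other samples. Reads shared between genes can be dropped or misplaced by such counting, which touches Mzb1, Cd79a, Pax5 and the immunoglobulin segments.

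From the deposited counts, genes were filtered with filterByExpr (minimum count of 10), scaled by TMM, and tested in edgeR 4.0.16 (glmQLFit and glmQLFTest, legacy form), the test named by the study. The Benjamini-Hochberg adjustment ran over 14682 tested genes. Total counts were 17767318 to 18390385 per library. An exact permutation test of 2 against 2 libraries cannot go below p = 0.333 (two-sided) and was not used. The test was first tried on simulated data with known changes. CPM values are TMM-scaled, and ± is the SD of 2 libraries. Lengths, positions and shared words were taken from GENCODE M21 (GRCm38), in which 53360 of the 53465 identifiers were found.

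The genes and all lists were chosen with earlier results of these data known, so no list is independent evidence of a direction. The genes named are the 9 genes, up to 4 genes with the highest mean CPM in each further B cell or plasma cell list, any of those that pass the test, up to 3 genes for each list of other cells, and up to 3 variable segments per locus. Tnfrsf13c, Ly6d, Siglecg, Bcl10, Malt1, Prdm1, Sdc1, Tnfrsf17, Derl3, Fkbp11, Tnfrsf13b, Ighg1, Ighg2b, Ighg3, Ighe and Siglech fall outside that rule and were named after their values were seen. The alternatives were RLE, upper-quartile and no scaling, immunoglobulin genes left out of the scaling, no filter or a minimum count of 20, robust estimation, DESeq2 1.42.0, a loess correction for length (span of 0.4), a replicate block, and leaving out each library. The result of 1 gene that the rule would name is not reported here. It stays in the totals of its list. Other tools were R 4.3.3, Python 3.11.15, pandas 2.3.3 and matplotlib 3.10.9. Columns of gene annotation in the table were used for symbols and for the gene type that marks immunoglobulin genes and segments.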

Additional observations from a re-analysis of the deposited data

How the results depend on the processing

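The count of the 9 genes that passed the test was 0 in each alternative fit, those that leave out a library included. For the other B cell and plasma cell lists the count was 0, but 1 with library size as the only scaling, 1 with robust estimation and 1 with DESeq2, Igha each time, and it ranged from 0 to 3 with a library left out. Malt1, Igha and Iglc2 passed without control replicate 2, Ighg2b without EGCG replicate 1, and Igha without EGCG replicate 2. The adjusted p of Igha ranged from 0.00510 to 0.122 with a library left out. Pax5 reversed to -0.0297 with library size only, and ranged from -0.0115 to 0.0292 with a library left out. Ebf1 ranged from -0.0415 to 0.147 in the same fits. The length correction took Pax5 to 0.111, Ebf1 to 0.163 and Igkc from 0.162 to 0.0789. The other 8 genes stayed above 0 under all alternatives that kept the 4 libraries. The cause of these changes was not tested, except that fits without a library hold fewer samples and assume that the lone library of a group varies like the other group. Scaling by library size only placed the median of all tested genes at -0.03 and that of the 9 genes at 0.13.

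With the replicate number as a block (replicate block), 0 of the 9 genes and 0 of the other lists passed, and Jchain stood at 0.23. The labels do not say that a number marks a shared mouse or day. Deviations of same-numbered libraries had a correlation of 0.0336 over tested genes. With so few libraries this value cannot show if same-numbered libraries share an origin.

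Over all tested genes 2 passed higher and 20 lower under EGCG. These counts were 16 and 135 with library size only, 14 and 50 with DESeq2, 14 and 49 with robust estimation, 6 and 24 with the block, 2 and 3 with the length correction, 2 and 9 with upper-quartile scaling, and 0 and 0 with no filter. They were 5 and 72 without control replicate 1, 119 and 235 of 15325 without control replicate 2, 28 and 90 without EGCG replicate 1, and 53 and 199 without EGCG replicate 2, so the list genes that passed in those fits stand among more calls over all genes. Tnfrsf17, with 1 to 6 counts, was too low to be compared at this depth.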

Other observations

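The variable segments of highest level in each locus gave values of their own. Ighv2-2, a heavy chain segment, had 259 and 257 counts in controls 1 and 2, and 188 and 200 in EGCG replicates 1 and 2, a log2 fold change of -0.41 (edgeR adjusted p = 0.230), opposite in sign to Ighm. Ighv2-9 had 319 and 306 counts in the controls and 336 and 290 with EGCG, and Ighv3-2, annotated as a pseudogene, had 199 and 215 against 191 and 243. In the κ locus, Igkv1-110 had 428 and 570 counts without EGCG and 548 and 478 with it, Igkv1-117 had 372 and 421 against 428 and 352, and Igkv14-126 had 341 and 337 against 369 and 362. Iglv1, the λ segment of highest level, had 947 and 868 counts across the controls and 979 and 851 in those with EGCG. None of these segments passed the test, and the groups overlapped for all of them but Ighv2-2, lower under EGCG, and Igkv14-126, higher under EGCG. Of the 55 tested Ighv segments, both EGCG libraries lay above both controls for 5 and below both for 8. For the 75 tested Igkv segments these counts were 13 and 8. Over all tested genes the shares were 21.5% above and 21.2% below.

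Of the other heavy chains, Ighg1 ranged from 18.1 to 21.3 CPM and Ighg3 from 14.6 to 22.6 CPM over the 4 libraries, with overlapping groups. Ighe had 3 and 0 counts in controls 1 and 2, and 1 and 0 in EGCG replicates 1 and 2. All immunoglobulin genes together took 0.305% and 0.320% of all counts in the controls, against 0.331% and 0.337% in the EGCG libraries.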
